A study of Triticum aestivum with 12 samples.

Results

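Roots of wheat plants with no access to normal potassium (K) were compared with the roots of all plants that had normal K on at least 1 side of a split root system. The first set was the group C. LK, whose root compartments both held 0.005 mmol/L of K2SO4, and it made up 3 of the 12 arrays of the series. The second set was the other 9 arrays, 3 for each of the groups Sp. LK, Sp. NK and C. NK, with the means of these 3 groups weighted equally. Arrays were assigned to the sets by their treatment labels and not by their signals. All plants were of the genotype Tongzhou916 and were 3 weeks old when they entered the split-root system, where they stayed for 5 days. Sp. LK was the low-K side (0.005 mmol/L) and Sp. NK the normal-K side (1 mmol/L) of plants with unequal supply, and C. NK had 1 mmol/L in both compartments. All seedlings had grown in normal K before, so that C. LK plants carried earlier K supply. By the methods of the study each replicate held 20 plants. Sp. LK and Sp. NK are the 2 sides of the same split condition, and whether arrays with the same number came from the same plants is not given in the sources used here.

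Potassium is the main cation of plant cells, where it balances charge, drives cell expansion and activates enzymes. Root cells take it up through channels when supply is ample and through high-affinity transporters when it is scarce. In Arabidopsis, transcripts of high-affinity K transporters are known to rise in roots that lack K. The contrast asks which transcripts set apart roots of plants with low K on both sides from roots of plants with normal K somewhere. The normal K could be on the same root side or on the other. Below, K access means normal K on at least 1 side. Sp. LK roots stood in the same low-K solution as C. LK roots, so that only the supply to the rest of the plant differed between them.

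The potassium transport gene LOC543226, measured by Ta.113.1.S1_at, is the gene with a symbol that the study listed under potassium ion transport. The primer pair that the study designed for this probe set is given here because it is the only sequence at hand for a probe set named below.
LOC543226 forward primer: tgccaggacaaaccatacagc
LOC543226 reverse primer: gccttccatagagcatgacca

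Signals came from the Affymetrix Wheat Genome Array, on which a probe set reports a transcript or a group of similar transcripts. Values below are normalized signals on the linear scale unless they are called log2 differences, which are C. LK minus the mean of the 3 other groups. The trimmed mean signal was 500.1 on every array, so that all differences are relative to this common level. Signals under 32, which lie near the background, made up 30.4% to 33.8% of probe sets per array. Of 61115 probe sets tested, 26541 had a mean log2 signal of 7 or more and are called the brighter probe sets. The median r of an array with the other arrays, over brighter probe sets that are not independent of each other, was lowest for C. LK replicate 2 (0.959) and Sp. LK replicate 2 (0.964), and it was 0.968 to 0.974 for the other 10 arrays. The 3′ minus 5′ signals of the 7 control transcripts, a measure of RNA degradation, overlapped between C. LK and the other arrays, with exact permutation p of 0.23 to 0.91 (two-sided, unadjusted, the smallest possible being 0.0091). These p-values measure the spread between pools of plants.

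At the thresholds of the study, an unadjusted p under 0.05 and a fold above 1.5, 242 of the brighter probe sets were higher in C. LK than in the other groups (0.912% of those tested) and 408 were lower (1.54%). In bulk roots a loss of cells of a type and a loss of RNA per cell cannot be told apart. Over all 61115 probe sets the counts were 899 higher (1.47%) and 1578 lower (2.58%). Limma called 2 probe sets after Benjamini-Hochberg adjustment (0.00327% of those tested), both higher in C. LK and both bright. An unadjusted p under 0.05 was found for 4451 probe sets, where 5% of those tested would be 3056. Among the brighter probe sets that passed the thresholds, the median size of the log2 difference was 0.79 for rises and 0.74 for falls. More than 2-fold differences were found in 79 rises and 70 falls.

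**Figure D1:**
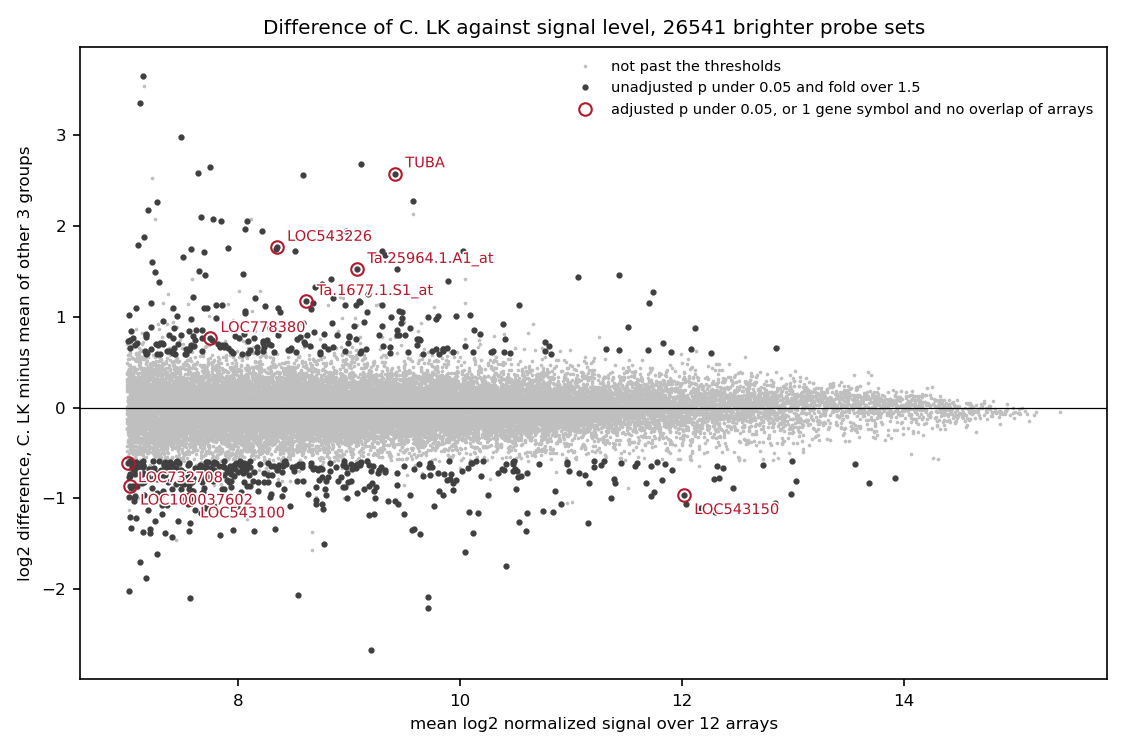
Log2 difference of C. LK minus the mean of the 3 other groups (y axis) against the mean log2 normalized signal over 12 arrays (x axis) for 26541 brighter probe sets, with black points for the 242 rises and 408 falls past the thresholds. Red circles mark the adjusted calls and the probe sets with a gene symbol whose C. LK arrays did not overlap with the others: TUBA is the highest of them at 2.58, and LOC543150 lies at -0.97 at a much brighter level.

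The balance of falls and rises rested on single C. LK arrays. Without C. LK replicate 2 the brighter falls numbered 235 and the rises 278. With C. LK replicate 3 left out there were 839 falls and 368 rises. With C. LK replicate 1 left out there were 625 falls and 244 rises. A single array left out of the other 3 groups gave 219 to 341 rises and 328 to 529 falls. The adjusted calls numbered 31 without C. LK replicate 3. With 1 other array left out they numbered 0 for C. LK replicates 1 and 2, for Sp. LK replicate 1 and for C. NK replicates 2 and 3, and they numbered 1 for Sp. NK replicate 2 and for C. NK replicate 1.

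Another reading, without thresholds, asks that all 3 C. LK arrays lie beyond all 9 others. Of the brighter probe sets, 181 were above on every C. LK array (0.682%) and 260 were below (0.98%). C. LK is 1 of 220 possible choices of 3 among the 12 arrays. Whether these shares exceed those of other choices was not tested. Of the 242 rises, 58 were separated in this way, and of the 408 falls, 75 were.

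The first of the adjusted calls was Ta.25964.1.A1_at, which has no gene symbol in the annotation. It had normalized signals of 1123, 1115 and 1337 in C. LK, against 450.1, 363 and 374 in Sp. LK, 421, 236 and 345 in Sp. NK, and 687, 535 and 454 in C. NK. Every C. LK array was well above every other array, and the C. NK arrays were the highest of the others. Its log2 difference was 1.52 (standard error 0.17, limma adjusted p = 0.027). The 3 groups with K access also differed in its signal at an unadjusted F test p of 0.0088, which was 1.00 after adjustment. The difference was 1.59 from Sp. LK, 1.87 from Sp. NK and 1.11 from C. NK.

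The second was Ta.1677.1.S1_at, likewise without a symbol. Its signals were 752, 722 and 691 in C. LK, against 283, 378 and 248 in Sp. LK, 303, 292 and 405 in Sp. NK, and 322, 328 and 354 in C. NK. The C. LK arrays lay close together, and the other 9 ran from 248 to 405. The means of Sp. LK, Sp. NK and C. NK were 303, 333 and 335 (limma F test among them, unadjusted p = 0.61). The log2 difference was 1.17 (standard error 0.15, limma adjusted p = 0.048). It was 1.27 from Sp. LK, 1.13 from Sp. NK and 1.11 from C. NK. With each array left out in turn, Ta.25964.1.A1_at missed an adjusted p of 0.05 in 5 runs (C. LK replicates 1 and 2, Sp. LK replicate 1, C. NK replicates 2 and 3). Ta.1677.1.S1_at kept it in 3 only, those without C. LK replicate 3, Sp. LK replicate 2 or Sp. NK replicate 3. Without the variance trend Ta.25964.1.A1_at had an adjusted p of 0.12 and Ta.1677.1.S1_at 0.15.

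Among genes with a transport role, LOC543226 (Ta.113.1.S1_at) stood under potassium ion transport and under plastid in the study's lists. Its signals were 738, 1055 and 699 in C. LK, against 369, 371 and 154 in Sp. LK, 234, 204 and 234 in Sp. NK, and 248, 285 and 158 in C. NK. All 3 C. LK arrays were above all 9 others, with a gap of 0.91 on the log2 scale between the lowest of them and the highest of the 9. The mean was 831 ± 195 in C. LK, and 298 ± 125 in Sp. LK, 224 ± 17.7 in Sp. NK and 230.4 ± 65.7 in C. NK (SD, n = 3 each). The log2 difference of 1.77 (standard error 0.26, unadjusted p = 9.8e-06) had a limma adjusted p of 0.086 over all probe sets. It was 1.56 from Sp. LK, 1.87 from Sp. NK and 1.87 from C. NK. The other groups did not pass a limma F test among themselves (unadjusted p = 0.55), which does not show that they are alike. Of the 3 Sp. LK arrays, from roots in the same low-K solution as C. LK roots, 2 lay above all Sp. NK and C. NK arrays and 1 lay below them. The study picked this gene from these arrays because Sp. LK was below C. LK.

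The second potassium ion transport probe set of the study, TaAffx.52479.1.S1_at, was dimmer, with a mean log2 signal of 6.81. It had signals of 178, 165 and 195 in C. LK, against 109, 136 and 88.1 in Sp. LK, 105, 69.9 and 64.5 in Sp. NK, and 117, 132 and 71.9 in C. NK. The C. LK arrays were again above all others, with a log2 difference of 0.90 (standard error 0.26, unadjusted p = 0.0037, adjusted p = 0.46). Sp. NK was the lowest group, with a mean of 79.8 ± 22.1 (SD, n = 3).

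LOC543086 (Ta.14486.1.S1_at), which the study listed under oxygen transport, missed the fold threshold with a log2 difference of 0.50 (standard error 0.15, unadjusted p = 0.0065, adjusted p = 0.50). Its signals were 720 to 1018 in C. LK, against a lowest of 453, a median of 584 and a highest of 853 over the 9 other arrays. Without C. LK replicate 1 it passed the thresholds, at 0.60. Ta.28112.1.S1_at, the respiratory gaseous exchange probe set, had signals of 565, 303 and 344 in C. LK, against 296 to 552 in the 9 others. Its log2 difference of -0.08 (standard error 0.18) did not pass, and its 3 pairwise differences had both signs, at -0.16 from Sp. LK, -0.38 from Sp. NK and 0.28 from C. NK.

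**Figure D2:**
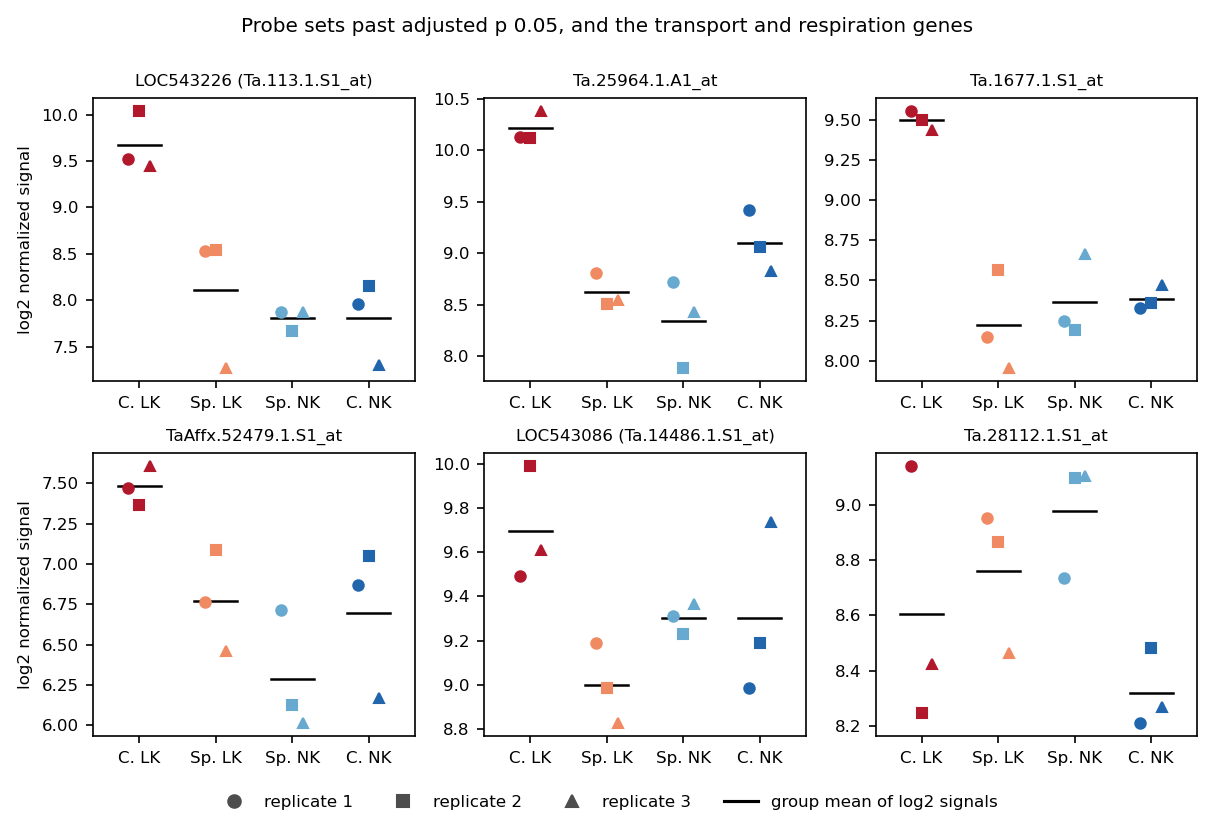
Log2 normalized signals (y axis) of 6 probe sets by group, from C. LK on the left to C. NK on the right, with 1 point for each array (circle, square and triangle for replicates 1, 2 and 3) and a line at the group mean. In 4 of the panels all 3 C. LK points lie above the other 9, whereas LOC543086 and Ta.28112.1.S1_at overlap.

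Among the 242 brighter rises, the median log2 difference was 0.90 from Sp. LK, 0.85 from Sp. NK and 0.74 from C. NK, and the difference from C. NK was the smallest of the 3 for 136 probe sets. Among the 408 falls the medians were -0.87, -0.81 and -0.61 in the same order, and the difference from C. NK was the smallest for 292. On its own, the comparison of C. LK with Sp. LK passed the thresholds for 370 brighter rises and 696 falls. That with Sp. NK passed for 297 and 520, and that with C. NK for 245 and 210. In the same order, limma gave an unadjusted p under 0.05 at 2725, 1896 and 1357 brighter probe sets. Since 5% of those tested would be 1327, the count against C. NK was close to that share. After adjustment the calls numbered 0, 1 and 0. These 3 comparisons share the C. LK arrays. A probe set passed in all 3 in the same direction for 55 rises (0.207% of brighter probe sets) and 103 falls (0.388%). Without C. NK replicate 3 there were 108 such rises, and such falls numbered 60 without C. LK replicate 2, or 301 when C. LK replicate 3 was left out. All 242 rises and 407 of the 408 falls had the same sign against each of the 3 groups. They were selected by their difference from the average of the same 3 groups, which largely fixes this shared sign in advance. For the difference among Sp. LK, Sp. NK and C. NK themselves, limma called 0 of 61115 probe sets after adjustment, and 2333 had an unadjusted F test p under 0.05, where 5% of those tested would be 3056.

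**Figure D3:**
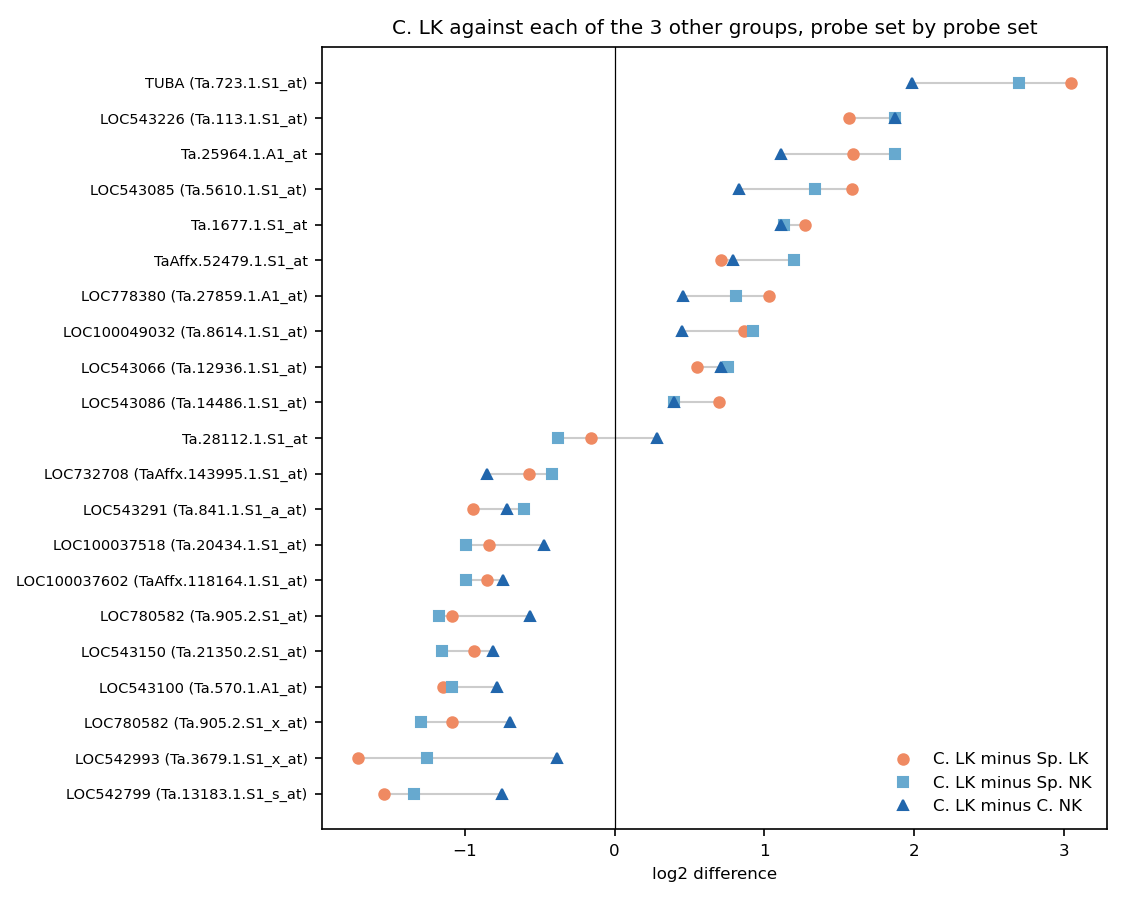
Log2 differences (x axis) of C. LK minus Sp. LK (circles), minus Sp. NK (squares) and minus C. NK (triangles) for the probe sets named by symbol, by adjusted p or by the study (rows). Rows of LOC543226 and Ta.1677.1.S1_at have all 3 points close together, while that of LOC542993 runs out to -1.71 from Sp. LK and ends at -0.38 from C. NK.

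Of the 793 brighter probe sets with a gene symbol, 6 rose and 12 fell at the thresholds, where 0.912% and 1.54% of all brighter probe sets did. The median log2 difference of the 793 was 0.00, against -0.01 over all brighter probe sets. LOC778380 (Ta.27859.1.A1_at), which the study listed under protein amino acid phosphorylation, was, with TUBA and LOC543226, among the 3 rises whose arrays were fully separated. Its signals were 362, 285 and 317 in C. LK, against 137, 153 and 185 in Sp. LK, 176, 175 and 199 in Sp. NK, and 191, 243 and 273 in C. NK. The order of the groups was C. LK, C. NK, Sp. NK and Sp. LK, with a log2 difference of 0.76 (standard error 0.16, adjusted p = 0.32). Another probe set of this gene was dim, with a log2 difference of -0.91 (unadjusted p = 0.21).

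The other rises with a symbol overlapped with the 9 arrays. LOC100049032 (Ta.8614.1.S1_at), a gene of the transcription factor activity category, had signals of 974, 1235 and 1342 in C. LK, against 790, 526 and 642 in Sp. LK, 636, 447 and 828 in Sp. NK, and 459, 1012 and 1372 in C. NK. C. NK replicates 2 and 3 reached the level of C. LK, and the log2 difference was 0.75 (standard error 0.27, adjusted p = 0.59), which did not pass without C. LK replicate 3 (0.65). The 3 other bright probe sets that share the ID part Ta.8614 had log2 differences of 0.18 to 0.30 and did not pass. LOC543085 (Ta.5610.1.S1_at) had signals of 965, 807 and 1721 in C. LK, against 188 to 1519 in the other arrays. Its log2 difference of 1.25 (standard error 0.55) passed the thresholds in only 4 of the 12 runs that left out an array, those without C. LK replicate 2 and without replicate 3 of Sp. LK, of Sp. NK or of C. NK. LOC543066 (Ta.12936.1.S1_at) had 1088, 1031 and 727 in C. LK, against 310.0 to 891 in the others, and its log2 difference of 0.67 (standard error 0.27) did not pass without C. LK replicate 1 or 2 or without C. NK replicate 1.

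The 8 largest rises without overlap were all more than 3-fold, and 7 of them have no gene symbol. Ta.28508.1.S1_x_at had signals of 769, 799 and 972 in C. LK, against 86.6, 55.9 and 166 in Sp. LK, 21.4, 36.0 and 335 in Sp. NK, and 108, 232 and 358 in C. NK. Its log2 difference was 2.98 (standard error 0.64, unadjusted p = 0.00039, adjusted p = 0.32), or 7.86-fold. The C. LK arrays were even, whereas the other groups each held values far apart.

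Ta.5825.1.S1_x_at followed the same order, with 1158, 1606 and 1644 in C. LK, against 148, 189 and 367 in Sp. LK, 97.2, 116 and 873 in Sp. NK, and 156, 293 and 722 in C. NK. In Sp. LK, in Sp. NK and in C. NK it was replicate 3 that came nearest to C. LK. The log2 difference was 2.56 (standard error 0.57, adjusted p = 0.34). Ta.14088.1.S1_x_at (2.65), Ta.28098.1.S1_x_at (2.18), Ta.22933.1.S1_at (2.10), Ta.14240.1.S1_at (1.96) and TaAffx.58820.2.S1_at (1.95) had standard errors of 0.44 to 0.72 and adjusted p of 0.34 to 0.46. Names that end in x_at mark probe sets whose probes can also bind related transcripts, which in hexaploid wheat may include copies of the gene in the other subgenomes.

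In each of these 8 rises the highest 2 of the 9 arrays with K access were Sp. NK replicate 3 and C. NK replicate 3. Replicate 3 was also the highest Sp. LK array in each of the 8, and the highest C. LK array in each but TUBA. Over the 79 brighter rises of more than 2-fold, these were the highest 2 in 57 (72.2%), against 1252 of all 26541 brighter probe sets (4.72%) and 1 of the 70 falls of more than 2-fold. The gap between the lowest C. LK array and the nearest of the 9 was 0.06 to 1.10 on the log2 scale in the 8 rises. In LOC543226 and Ta.25964.1.A1_at, by contrast, replicate 3 was the lowest C. NK array, at 158 and 454. In Ta.1677.1.S1_at replicate 3 was the highest array of Sp. NK and of C. NK, at 405 and 354. Whether a batch, the harvest or a growth difference goes with the number 3 was not tested, since no label gives it.

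**Figure D4:**
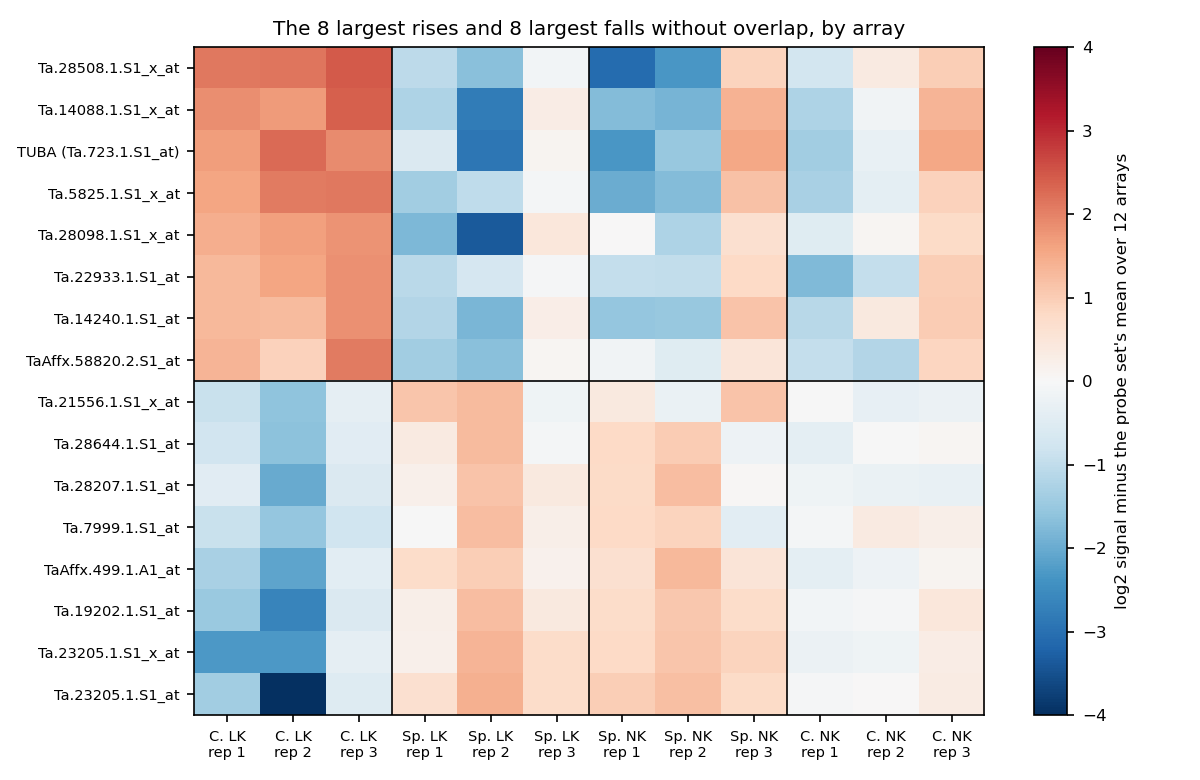
Log2 normalized signal minus the probe set's mean over 12 arrays (colour scale, red high and blue low) for the 8 largest rises (upper rows) and the 8 largest falls (lower rows) without overlap, with the 12 arrays as columns. C. LK columns are red above and blue below, and in the upper rows replicate 3 of Sp. NK and of C. NK is also red, up to a log2 gap of 0.06 from C. LK.

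TUBA (Ta.723.1.S1_at), an alpha-tubulin gene whose product is a building block of microtubules, was the only one of the 8 with a symbol. Its signals were 2159, 3265 and 2501 in C. LK, against 455, 92.7 and 740.5 in Sp. LK, 135, 239 and 1999 in Sp. NK, and 258, 556 and 1981 in C. NK. The C. LK arrays were above all others by a narrow margin over Sp. NK replicate 3 and C. NK replicate 3. The log2 difference was 2.58 (standard error 0.77, unadjusted p = 0.0050, adjusted p = 0.48). The second TUBA probe set, Ta.812.1.S1_x_at, had a mean log2 signal of 14.6 and a log2 difference of -0.07 (unadjusted p = 0.45). Of 10 bright tubulin probe sets, TUBA Ta.723.1.S1_at was the only one to pass, and the median log2 difference of the 10 was 0.04. The 8 beta-tubulin probe sets lay between -0.05 and 0.14.

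Among falls, Ta.23205.1.S1_at was the largest without overlap, with no gene symbol. Its signals were 223, 34.3 and 406 in C. LK, against 922, 1562 and 983 in Sp. LK, 1154, 1336 and 995 in Sp. NK, and 570.0, 589 and 728 in C. NK. C. LK replicate 2 was the lowest array, and C. NK lay between C. LK and the split-root groups. The log2 difference was -2.67 (standard error 0.50, unadjusted p = 0.00012, adjusted p = 0.23), and it was -1.63 without C. LK replicate 2.

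The related probe set Ta.23205.1.S1_x_at had signals of 171, 169 and 653 in C. LK, against 959, 2171 and 1393 in Sp. LK, 1469, 1792 and 1561 in Sp. NK, and 710, 739 and 1023 in C. NK, a log2 difference of -2.21 (standard error 0.34, adjusted p = 0.10). Their shared name means that both probe sets may report the same transcript. Another probe set of the cluster, Ta.23205.2.S1_at, had a mean log2 signal of 4.73, too near the background to be read.

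Ta.19202.1.S1_at had signals of 298, 135 and 559 in C. LK, against 988, 1960.1 and 1093 in Sp. LK, 1405, 1761 and 1398 in Sp. NK, and 769, 802 and 1146 in C. NK. The log2 difference was -2.09 (standard error 0.32, adjusted p = 0.10), with C. LK replicate 2 lowest once more. The other 5 of the 8 largest falls were TaAffx.499.1.A1_at (-1.70), Ta.7999.1.S1_at (-1.43), Ta.28207.1.S1_at (-1.35), Ta.28644.1.S1_at (-1.27) and Ta.21556.1.S1_x_at (-1.27), with adjusted p of 0.23 to 0.43. Ta.28207.1.S1_at was at -0.85 without C. LK replicate 2. In 7 of the 8 largest falls, the highest 2 of the 9 arrays with K access were Sp. LK replicate 2 and Sp. NK replicate 2. Over all 70 brighter falls of more than 2-fold this pair was highest in 32 (45.7%), against 1917 of all brighter probe sets (7.22%) and 0 of the 79 rises.

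Of the 12 falls with a gene symbol, 10 were named by the rule, with 2 of these from the same gene. LOC543150 (Ta.21350.2.S1_at) was by far the brightest. It had signals of 2498, 2574 and 2458 in C. LK, against 6642, 5459 and 3066 in Sp. LK, 6633, 6340.1 and 4120 in Sp. NK, and 4138, 4982 and 4118 in C. NK. C. LK held a narrow range below all 9 others, with a log2 difference of -0.97 (standard error 0.19, unadjusted p = 0.00022, adjusted p = 0.29). The other probe sets with this symbol or the ID part Ta.21350 were brighter still, had log2 differences of -0.23 and -0.11, and did not pass.

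LOC543100 (Ta.570.1.A1_at) was also below on every C. LK array, with 101, 105 and 134 in C. LK, against 209, 354 and 207 in Sp. LK, 268, 250.4 and 201 in Sp. NK, and 224, 176 and 183 in C. NK. It was 2.01-fold lower in C. LK (standard error 0.20 on the log2 scale, adjusted p = 0.29). LOC100037602 (TaAffx.118164.1.S1_at, -0.86) and LOC732708 (TaAffx.143995.1.S1_at, -0.62) were separated as well, at the lower edge of the brighter range. The 3 other bright probe sets with the symbol LOC100037602 or the ID part TaAffx.118164 had differences of -0.32 to -0.29 and did not pass. LOC732708 did not pass without C. LK replicate 1, nor without replicate 2 of Sp. LK or of C. NK. The other bright probe sets that share the ID part TaAffx.143995 had differences of -0.30 to 0.42. The annotation gives no function for LOC543150 or for these 3 genes.

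LOC542993 (Ta.3679.1.S1_x_at), which the study listed under glutathione transferase, enzymes that join glutathione to reactive compounds, had signals of 383, 151 and 248 in C. LK, against 985, 717 and 718 in Sp. LK, 672, 568 and 508 in Sp. NK, and 322, 337 and 294 in C. NK. Its log2 difference was -1.12 (standard error 0.22, unadjusted p = 0.00016, adjusted p = 0.24). The C. LK arrays overlapped with C. NK (difference -0.38, unadjusted p = 0.17) and lay below both sides of the split roots, at -1.71 from Sp. LK and -1.25 from Sp. NK. The 3 groups with K access differed among themselves at an unadjusted F test p of 0.00069 (adjusted 1.00). A second bright probe set of it had a log2 difference of -0.47 (unadjusted p = 0.032).

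LOC780582, an avenin-like gene of the storage protein family known from grain, fell on both of its bright probe sets. Ta.905.2.S1_x_at had 363, 290 and 615 in C. LK, against 805, 1007 and 759 in Sp. LK, 1012, 1272 and 737 in Sp. NK, and 699, 748 and 531 in C. NK. C. LK replicate 3 overlapped with C. NK, and the log2 difference was -1.02 (standard error 0.21, adjusted p = 0.32). Ta.905.2.S1_at was at -0.94, and at -0.58 without C. LK replicate 2, which did not pass. LOC543291, whose synonyms OEE1 and PsbO stand for a subunit of the oxygen-evolving complex of chloroplasts, had signals of 111, 60.7 and 101 in C. LK, against 78.8 to 231 in the others. Its log2 difference was -0.76 (standard error 0.31), which did not pass without C. LK replicate 2 (-0.49). LOC542799 (Ta.13183.1.S1_s_at, -1.21) and LOC100037518 (Ta.20434.1.S1_at, -0.77) overlapped too, and LOC100037518 was at -0.23 without C. LK replicate 2. Beside the probe set of LOC542799, Ta.13183.1.S1_x_at, with a mean log2 signal of 6.73, had a log2 difference of -0.22 (limma, unadjusted p = 0.56). Beside the named probe set of LOC100037518, a bright one that shares the ID part Ta.20434 (Ta.20434.2.S1_x_at) had a log2 difference of -0.08 and did not pass.

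Gene lists drawn from symbols and synonyms were small, since only 1273 of 61115 probe sets have a symbol. With 0.912% higher and 1.54% lower over all brighter probe sets, lists of this size are too small for their counts to be read against those shares. None of the 17 bright core histone probe sets passed, although their median log2 difference of 0.26 was above the 0.00 of all 793 with a symbol, with a range of -0.13 to 0.44. Their summed signal was 134350 to 156939 in C. LK, against 87722 to 161729 in the other arrays. None of the 8 bright probe sets for ion transport and metal uptake passed, with differences of -0.14 to 0.11. Among them were the plasma membrane proton ATPase ha1, which powers nutrient uptake, and the vacuolar cation channel TPC1. The rest were probe sets of DMAS1 and PCS1. LOC543226, which passed at 1.77, is not in this list, since words for potassium transport matched 0 probe sets. Nothing about potassium transport genes can thus be read from this list. None of 8 bright probe sets for translation passed (median 0.05), nor of 5 for sugar metabolism (median 0.14), 5 for peroxide, thiol and glutathione enzymes (median -0.18), 5 for defence and protease inhibitors (median -0.11) or the single one for dehydrins and LEA proteins (0.13). In the defence list the pathogenesis-related gene PR5 (Ta.24501.1.S1_at) had a log2 difference of -1.57, with a standard error of 0.75 and an unadjusted p of 0.056. WGA2 (Ta.147.1.S1_at) went the other way, at 0.85 (standard error 0.74). The remaining bright members of that list lay between -0.16 and -0.07.

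Markers of other organs gave no separation of C. LK. The list of light reactions and carbon fixation, genes of leaf cells, had 6 bright probe sets, of which 1 fell (LOC543291), with a median of -0.03 and a summed signal of 7892 to 8462 in C. LK, against 6882 to 11194 in the other arrays. The list of grain storage proteins and inhibitors had 4 bright probe sets, of which the 2 of LOC780582 fell, with a summed signal of 6596 to 7401 in C. LK, against 6719 to 9381 in the others. The part of shoot or grain transcripts in any result was not tested.

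The functional categories that the study assigned to its own differentially expressed genes were chosen on these same arrays, so their counts are a description and not independent evidence, and nothing is read from them against the 0.912% higher and 1.54% lower of all brighter probe sets. Of 33 bright probe sets that the study listed as lower in Sp. LK, 16 were higher in C. LK here, 0 were lower and 17 did not pass, with a median log2 difference of 0.58. These include 6 of 9 under plastid, 4 of 10 under cytoplasmic membrane-bounded vesicle, 2 of 4 under transcription factor activity, and the only bright member under methyltransferase (1.68) and under potassium ion transport (1.77). Of 34 listed as higher in Sp. NK, 8 were lower in C. LK, 1 was higher and 25 did not pass, with a median of -0.23. In that list 3 of 4 glutathione transferase probe sets were lower in C. LK, with differences over the 4 of -1.12 to -0.46. From C. NK alone the differences of the 4 were -0.52 to 0.01, against -1.71 to -0.67 from Sp. LK and -1.31 to -0.66 from Sp. NK. The single bright members under jasmonic acid mediated signaling (-0.68) and cellular respiration (-0.59) were also lower, and from C. NK alone they were at -0.29 and -0.04. In the same list 0 of 7 under transcription factor activity passed.

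Set against the average of the other 3 groups in the same way, C. LK passed the thresholds at 650 brighter probe sets (2.45%). Sp. LK did so at 251 (0.946%), Sp. NK at 193 (0.727%) and C. NK at 166 (0.625%). Rises were 37.2% of the differences of C. LK, against 60.6% for Sp. LK, 63.7% for Sp. NK and 22.3% for C. NK. An unadjusted p under 0.05 was found at 2590 brighter probe sets for C. LK, against 1225 for Sp. LK, 697 for Sp. NK and 985 for C. NK. After adjustment limma called 0 for each of the other 3 groups, also over all probe sets. The 4 contrasts share all arrays, and the difference between their counts was not tested. Each of the other 3 groups was set against an average that includes C. LK. Falls in C. LK thus add to the rises of those groups, and the shares of rises are not separate traits of each group.

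**Figure D5:**
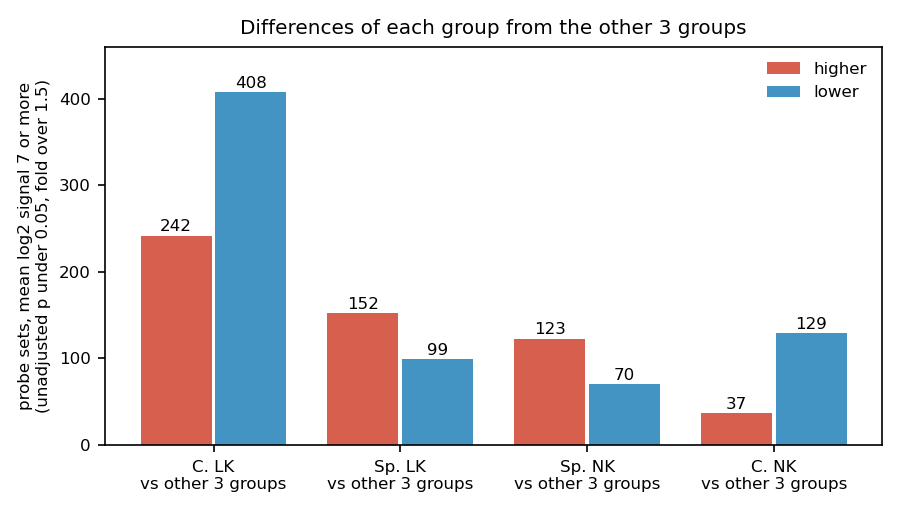
Number of brighter probe sets past an unadjusted p under 0.05 and a fold above 1.5 (y axis) when each group is set against the average of the other 3, with red bars for higher and blue bars for lower. C. LK has 242 and 408, and no other group exceeds 152 in either direction.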

How the data were processed

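The authors hybridized wheat root RNA to Affymetrix arrays, processed the scans with MAS 5.0 in GeneSpring, and deposited log2 signals with 1 value per probe set and array. Of 61290 probe sets, 111 AFFX controls and 64 reporter (RPTR) probe sets were left out and 61115 tested. In R 4.3.3, limma 3.58.1 was fitted over the 4 group means with eBayes and a variance trend, with no further scaling, and C. LK was set against the plain average of the other groups. Adjusted p are Benjamini-Hochberg values over 61115 probe sets. The steps were tested on simulated data. The precision is limited by 3 arrays per group. No detection calls or raw intensities were used here.

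The contrast, and thus its members, and the gene lists were chosen with earlier results of these data known. Named probe sets had a mean log2 signal of 7 or more and passed the thresholds: the 8 largest rises and falls with no overlap of arrays, those with 1 gene symbol and no overlap by size (up to 15 a direction, filled where under 10 to 10 by the largest differences that overlapped), and the adjusted calls, plus 4 key genes of the study. Symbols came from the platform annotation, which names 1273 probe sets. Of 20 lists searched as words in gene names, 4 matched, with at most 5 probe sets, so that 10 lists were written from symbols and synonyms after some values had been seen. The methods name a t-test, run as an alternative.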

Additional observations from a re-analysis of the deposited data

How the results depend on the processing

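Of 36 named probe sets, 35 kept the sign of their log2 difference under every alternative run for them, 24 each and 1 fewer for TaAffx.52479.1.S1_at, which the fit on brighter probe sets alone left out. The exception was Ta.28112.1.S1_at (-0.08), which was at 0.063 with the average taken without Sp. NK, between -0.35 and 0.096 with 1 array left out (above 0 without C. LK replicate 2 or 3), and 0.11 without replicate 2 of C. LK and of Sp. LK, a setting added after seeing the data because these arrays correlated least with the others. With those arrays left out, brighter falls numbered 199, falls in all 3 pairwise comparisons 48, and adjusted calls 0. Brighter falls numbered 616 with the average taken without C. NK. With signals under 32 set to 32, all rises numbered 577 and all falls 685, and probe sets past the thresholds in all 3 pairwise comparisons numbered 32 higher and 66 lower. Without the variance trend these were 31 and 63. Adjusted calls, 2 in the reported fit, numbered 1 with the floor, 8 with the 9 arrays as 1 group, 0 without Sp. LK or without Sp. NK in the average, 1 without C. NK, and 0 by the methods' t-test. With the replicate number as a block there were 7 adjusted calls and 89 rises in all 3 pairwise comparisons. The numbers were not taken to pair the arrays, since deviations of same-numbered arrays correlated above 0.1 in 9 of 18 pairs, and in 3 of the 9 with C. LK. The 3 pairs of Sp. NK with C. NK were all above it (0.34, 0.21 and 0.35), each array matching its own number best, a feature of the signals that no label explains. For Sp. LK with Sp. NK, the 2 sides of the split condition, the values were -0.21, 0.27 and 0.25. There the own number matched best for replicates 2 and 3. These values are too few to show whether the 2 sides share plants.

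Leaving out 1 array at a time gave 219 to 368 brighter rises, 235 to 839 brighter falls, 737 to 1056 rises and 1306 to 2292 falls over all probe sets, 0 to 31 adjusted calls, and 40 to 108 rises and 60 to 301 falls in all 3 pairwise comparisons. The share of rises among brighter calls was 37.2%, and 54.2% without C. LK replicate 2. Signals near the background limit dim probe sets, with a median standard error of 0.35 over all and 0.15 over brighter ones.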
